A study of Mus musculus with 20 samples.

Results

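The vascular endothelial growth factor (VEGF) genes described here are 8 of the 46983 genes counted in the series: the ligands Vegfa, Vegfb, Vegfc and Pgf, the receptors Kdr and Flt1, and the co-receptors Nrp1 and Nrp2. They were chosen by name, with earlier results of these data known, and all 8 had a gene ID in the data. Other genes of the pathway are given beside them as lists, chosen likewise, by their counts. Counts set beside the share over all genes are therefore descriptions and no test of the members or lists.

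VEGF ligands are secreted proteins that bind receptor tyrosine kinases on endothelial cells. Vegfa acts through Kdr (VEGFR2), the main signalling receptor for growth and permeability of blood vessels, while Flt1 (VEGFR1) binds Vegfa, Vegfb and Pgf tightly, signals weakly and in part withholds ligand from Kdr. Nrp1 and Nrp2 are co-receptors for VEGF ligands and for class 3 semaphorins, and in tumours most Vegfa is made by tumour and stromal cells rather than by the endothelium.

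The libraries hold bulk RNA of CD31-positive cells from tumours of E0771, a mouse mammary carcinoma line. Per the labels, tumours grew in the mammary fat pad and were taken at 500 mm3, and cells were enriched on CD31 beads and then sorted. CD31, the product of Pecam1, is carried by endothelial cells. All hosts were on C57BL/6J, and 20 libraries came from 6 backgrounds. The submitters class 3 of them as deficient for CD4 T cells: CD4KO (n = 3), TCRKO (n = 3) and Tie2Cre_H2Abf (n = 4), whose label reads Tie2Cre;H2Ab fl/fl. The other 3 are classed as competent: CD8KO (n = 3), Tie2Cre (n = 3) and WT (n = 4). Tie2Cre is known to be active in endothelial cells and also in blood cells. The sources used here do not say which part of a gene is missing in CD4KO, TCRKO or CD8KO hosts. A library name such as CD4KO_9770 joins the labelled background and number. No label says that libraries are from different animals, so a p-value speaks only of the spread between samples, which may be technical.

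Libraries held between 1543847 counts in Tie2Cre_9501 and 11478902 in Tie2Cre_H2Abf_9589. Ribosomal and other abundant RNA took from 18.3% of a library in CD8KO_9752 to 87.2% in WT_9749, and satellite repeats took 47.1% of WT_9771 and 19.7% of Tie2Cre_9501, against at most 2.53% elsewhere. Levels between groups are therefore given as counts relative to library size (CPM), with library sizes scaled by TMM, and levels between genes as TPM, which corrects for length. H2-Ab1, the gene floxed in Tie2Cre_H2Abf, averaged 3.15 ± 2.69 CPM there (SD, n = 4), against 60.5 ± 35.4 in Tie2Cre (n = 3). Cd8a averaged 52.5 ± 15.7 CPM in the libraries labelled CD8KO (n = 3), so its RNA was not absent under that label. It had 3 counts in all in WT. Cd4 averaged 9.16 ± 5.92 CPM in CD4KO and 6.87 ± 6.78 CPM in WT, and Trac had 17 counts in TCRKO and 1 in WT. These genes do not check the CD4KO, CD8KO and TCRKO labels, since the deleted parts are not known here. All 11 endothelial markers had counts in every background, with a summed level of 2355 to 7003 CPM.

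The promoters of both receptors and of the ligands with the smallest p for any difference among backgrounds are shown, because the results that follow turn on these 4 genes. Each line gives the 250 bases before the first transcription start listed by RefSeq on GRCm38.p6, 5′ to 3′ on the gene's strand, which is the minus strand for all 4. The places are chr5:75978456-75978705 for Kdr, chr5:147726012-147726261 for Flt1, chr12:85177314-85177563 for Pgf and chr17:46032378-46032627 for Vegfa. Capitals mark the GC box GGGCGG on either strand and, in Flt1, the TATA box TATAAA.
Kdr: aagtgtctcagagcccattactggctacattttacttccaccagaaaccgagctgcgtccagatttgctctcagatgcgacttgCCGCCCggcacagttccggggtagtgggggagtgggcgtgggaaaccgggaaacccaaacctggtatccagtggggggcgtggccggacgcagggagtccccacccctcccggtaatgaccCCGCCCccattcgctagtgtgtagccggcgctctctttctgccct
Flt1: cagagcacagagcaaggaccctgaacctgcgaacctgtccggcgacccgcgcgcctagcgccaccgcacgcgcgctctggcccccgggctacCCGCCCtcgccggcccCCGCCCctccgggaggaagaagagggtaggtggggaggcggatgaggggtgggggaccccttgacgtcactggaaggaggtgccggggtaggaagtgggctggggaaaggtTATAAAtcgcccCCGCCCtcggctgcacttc
Pgf: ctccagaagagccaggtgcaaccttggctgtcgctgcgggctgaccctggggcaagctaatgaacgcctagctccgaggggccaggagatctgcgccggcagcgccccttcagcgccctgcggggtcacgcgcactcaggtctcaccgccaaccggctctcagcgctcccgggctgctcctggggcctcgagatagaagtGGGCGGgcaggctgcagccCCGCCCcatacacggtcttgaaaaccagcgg
Vegfa: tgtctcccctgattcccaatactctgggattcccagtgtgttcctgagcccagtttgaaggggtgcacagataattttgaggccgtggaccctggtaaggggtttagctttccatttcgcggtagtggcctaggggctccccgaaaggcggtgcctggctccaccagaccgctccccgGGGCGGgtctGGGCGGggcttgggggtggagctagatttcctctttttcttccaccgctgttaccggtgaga

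A GC box stood in the window of 8 of the 8 genes, against 35.6% of 32817 RefSeq promoters of the same length (300 bases, of which 50 follow the start). Kdr held 2 matches, at -166 and -45 from the start, and Flt1 held 3, at -158, -142 and -19. Pgf held 2 at -50 and -31, and Vegfa held 2 at -72 and -62. TATAAA was found in Flt1 alone, at -31, against 13.6% of all promoters. The hypoxia element core ACGTG (19.6% of all promoters) and the ETS site CGGAAG (16.9%) were in none of the 8 windows on either strand. GC content was 60.7% to 75.3% in these 8 windows, against a median of 52.7% over all promoters, and a match describes letters only. Vegfa and Pgf each had another listed start, not counted here, while the 32817 promoters include such starts. The window of that start held CACGT, the hypoxia core on the other strand, in Vegfa, and no GC box in Pgf.

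Seen within libraries, the receptors were above the ligands, except that Pgf had a higher TPM than Kdr in 3 of 20 libraries. Flt1 had the highest TPM of the 8 genes in 19 of 20 libraries, with Kdr higher in Tie2Cre_9501, and its median rank among 21535 protein-coding genes was 149.5. Kdr had a median rank of 317.5. The ratio of Flt1 to Kdr TPM had a median of 1.603, with 0.527 in Tie2Cre_9501 and 2.77 in CD4KO_9768 as its ends. Nrp2 and Nrp1 had median ranks of 1580 and 1646, and Nrp1 was above Nrp2 in 8 of 20 libraries. Pgf was the ligand with the highest TPM in 20 of 20 libraries and had a median rank of 1018. It made up a median of 82.65% of the summed TPM of the 4 ligands, with a range of 58.2% to 99.5%. TPM of a library moves with its share of abundant RNA, so these orders are read within a library.

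**Figure D1:**
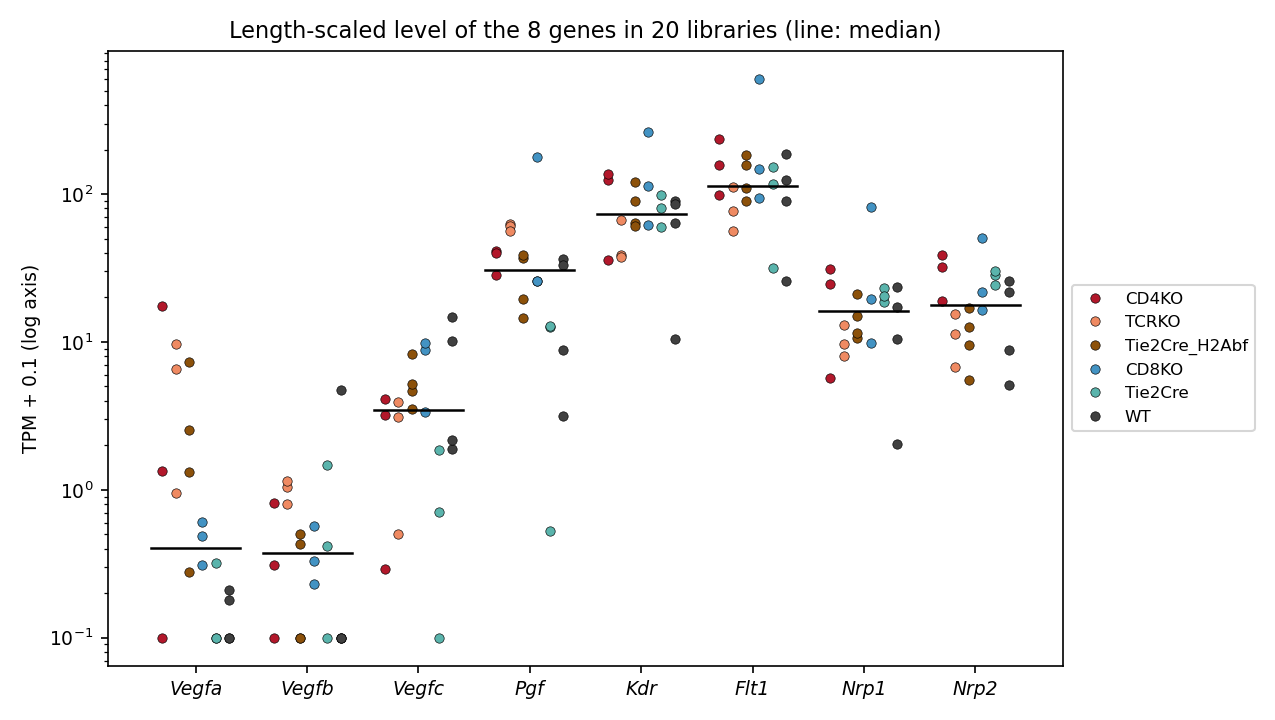
TPM of the 8 VEGF genes on a log axis, with a small constant added so that 0 can be drawn, a point for each of the 20 libraries coloured by background, and a line at the median. Flt1 and Kdr lie highest, Pgf, Nrp2 and Nrp1 in the middle, and Vegfc, Vegfa and Vegfb lowest, where several libraries are at 0.

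Pgf (ENSMUSG00000004791, chr12:85166635-85177790, minus strand, GRCm38) encodes placental growth factor, a ligand of Flt1 and the neuropilins. Its CPM was 39.1, 25.5 and 25.2 in CD4KO. In TCRKO it was 61.5, 80.2 and 62.7. In Tie2Cre_H2Abf it was 63.7, 19.0, 17.8 and 59.2, so this background fell into a high and a low pair. Libraries labelled CD8KO had 24.8, 43.0 and 33.5 CPM. Tie2Cre had 0.378, 12.55 and 10.7 CPM. WT had 32.3, 15.9, 9.85 and 29.0 CPM. All 3 TCRKO libraries thus lay above all 4 WT libraries, and all 4 Tie2Cre_H2Abf libraries above all 3 Tie2Cre libraries.

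The order of the backgrounds for Pgf was TCRKO (68.1 ± 10.5 CPM), Tie2Cre_H2Abf (39.9 ± 25.0), CD8KO (33.8 ± 9.12), CD4KO (29.9 ± 7.95), WT (21.8 ± 10.6) and Tie2Cre (7.88 ± 6.56). Only TCRKO and Tie2Cre_H2Abf, and WT and Tie2Cre, differed between neighbours by more than the larger SD. CD4-deficient backgrounds averaged 45.4 ± 22.6 CPM (17.8 to 80.2, median 49.1, n = 10), against 21.2 ± 13.3 CPM in CD4-competent ones (0.378 to 43.0, median 20.4, n = 10). The groups overlapped. The log2 fold change was 1.08 ± 0.42 (SE; 95% interval 0.22 to 1.95), and it did not pass the threshold of 0.05 (edgeR quasi-likelihood test, adjusted p = 0.557). This fit took the 10 libraries of each class as independent replicates, although they came from different backgrounds. Its SE and interval therefore do not take the background as the unit and may be too narrow. Backgrounds did not all follow the class, as deficient CD4KO (29.9 CPM) averaged below competent CD8KO (33.8 CPM). For TCRKO against WT the log2 fold change was 1.63 ± 0.62 (0.34 to 2.91; edgeR adjusted p = 0.536). For Tie2Cre_H2Abf against Tie2Cre it was 2.30 ± 0.68 (0.90 to 3.69; edgeR adjusted p = 0.576), and 1.78 ± 0.62 without Tie2Cre_9501, which had 1 count of Pgf. Tie2Cre against WT was -1.44 ± 0.66 (edgeR adjusted p = 0.717), CD4KO against WT 0.44 ± 0.62 and CD8KO against WT 0.62 ± 0.62. WT is the control in 4 of these comparisons and Tie2Cre stands in 2, so their values are not independent.

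Pgf was also highest in TCRKO when set against endothelial genes. The ratio of Pgf to Pecam1 CPM was 0.0993 ± 0.0223 in TCRKO (n = 3) and 0.0224 ± 0.00556 in WT (n = 4). The ratio of Pgf to Flt1 TPM was 0.781 ± 0.222 in TCRKO, against 0.255 ± 0.140 in CD4KO, 0.223 ± 0.139 in Tie2Cre_H2Abf, 0.247 ± 0.0645 in CD8KO, 0.0682 ± 0.0494 in Tie2Cre and 0.169 ± 0.0772 in WT. Every TCRKO library (0.555 to 0.998) was above every other library, the highest of which was CD4KO_9768 at 0.4165. These ratios are descriptions with no test and no share over all genes. Both denominators averaged lower in TCRKO than in WT, which raises the ratios. Flt1 TPM was 81.7 ± 28.3 in TCRKO and 106.9 ± 67.6 in WT, and Pecam1 CPM was 705.5 ± 152.2 and 967.6 ± 359.

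Vegfa (ENSMUSG00000023951, chr17:46016993-46032369, minus strand), the main ligand of Kdr, was near the limit of detection. It had 372 counts in 20 libraries, and 80.11% of them came from CD4KO_9770, TCRKO_9766 and TCRKO_9767. CD4KO had 0, 6 and 128 counts and TCRKO had 7, 95 and 75. Tie2Cre_H2Abf had 16, 7, 17 and 4 counts. The libraries labelled CD8KO had 7, 2 and 5, Tie2Cre had 1, 0 and 0, and WT had 1, 0, 1 and 0. Counts were at 0 in 5 libraries and at 3 or fewer in 9. A floor of 3 counts stood for 0.128 CPM in CD8KO_9752 and for 2.46 CPM in WT_9771, so a level below that was not detectable.

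Per library size, Vegfa was 0.862, 11.3 and 17.05 CPM in TCRKO and at most 0.821 CPM in WT. The lowest TCRKO value was above the highest WT value, but that one is 1 count in WT_9771, whose floor is 2.46 CPM, so no separation was detectable. Likewise the lowest Tie2Cre_H2Abf value, 0.579 CPM, stood beside 0.378 CPM in Tie2Cre_9501, which is 1 count in a library with a floor of 1.13 CPM. CD4-deficient backgrounds held 355 counts and CD4-competent ones 17, a ratio per library size of 22.1 (exact Poisson interval 13.6 to 38.35). The fitted log2 fold change was 4.03 ± 1.01 (edgeR adjusted p = 0.375), which did not pass. It was 1.69 to 4.65 under 30 other settings, with a smallest adjusted p of 0.0558 (DESeq2). Group against group, where a control had 3 counts or fewer, only ratios of summed counts are given. The ratio was 44.6 for CD4KO against WT (134 and 2 counts; 12.1 to 372), of which CD4KO_9770 held 128; without it the ratio was 4.18 (6 and 2 counts; 0.747 to 42.3). For TCRKO against WT it was 72.9 (177 and 2 counts; 19.9 to 607), and for Tie2Cre_H2Abf against Tie2Cre 34.3 (44 and 1 counts; 5.85 to 1387). For CD8KO against WT it was 3.10 (14 and 2 counts; 0.712 to 28.1), and for Tie2Cre against WT 0.459 (1 and 2 counts; 0.00778 to 8.82). The edgeR adjusted p was 0.573 for CD4KO, 0.403 for TCRKO and 0.576 for Tie2Cre_H2Abf. These intervals cover counting error only, not the spread between libraries, and amplified reads are not independent molecules.

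Markers of other cells were looked at beside Vegfa and Pgf, since tumour cells and macrophages can make both. The 9 epithelial tumour cell markers summed to 5.42, 18.2 and 10.7 CPM in TCRKO_9765, TCRKO_9766 and TCRKO_9767, against 0.212 to 9.60 CPM in WT. In TCRKO 5 of the 9 were at 0: Krt18, Krt19, Krt14, Epcam and Cldn7. They summed to 6.14 CPM in CD4KO_9770, to 0.178 to 3.62 CPM in Tie2Cre_H2Abf and to 0 to 10.2 CPM in Tie2Cre. The 10 macrophage markers summed to 448 to 570 CPM in CD4KO, 266 to 673 CPM in TCRKO and 83.4 to 549 CPM in Tie2Cre_H2Abf, against 187 to 292 CPM in Tie2Cre and 233 to 684 CPM in WT. Their part in the levels of Vegfa and Pgf was not tested. In bulk RNA a change in the number of cells of a type and a change in RNA per cell cannot be told apart.

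Vegfb (ENSMUSG00000024962, chr19:6982473-6987651, minus strand), a ligand of Flt1, was not measurable at this depth. It had 54 counts in all and 0 in 7 libraries, and it failed the filter on low counts, so it was not in the main test. With no such filter its edgeR adjusted p for any difference was 0.958. CD4KO had 0, 1 and 4 counts, TCRKO 5, 6 and 4, and Tie2Cre_H2Abf 3, 2, 0 and 0. Those labelled CD8KO had 1, 2 and 1, Tie2Cre 0, 2 and 7, and WT 0, 0, 0 and 16. The CD4-deficient backgrounds held 25 counts and the CD4-competent ones 29, a ratio per library size of 0.912 (0.512 to 1.61). Without WT_9772, which held 16 of the counts, it was 1.89 (0.931 to 4.03), an interval that holds 1.

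Vegfc (ENSMUSG00000031520, chr8:54077606-54187096, plus strand), the ligand of Flt4 (VEGFR3) that drives lymphatic growth, had 761 counts. Its CPM was 0.218, 3.455 and 3.18 in CD4KO and 0.493, 6.18 and 4.09 in TCRKO. In Tie2Cre_H2Abf it was 7.26, 7.45, 5.87 and 15.5, against 0, 2.19 and 0.630 in Tie2Cre. The libraries labelled CD8KO had 10.5, 2.95 and 5.22 CPM, and WT had 11.3, 4.04, 8.21 and 15.9 CPM. Every Tie2Cre_H2Abf library was above every Tie2Cre library, and every CD4KO and every Tie2Cre library was below every WT library.

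By CD4 status the log2 fold change of Vegfc was -0.18 ± 0.64, and -1.49 ± 0.71 without the Tie2Cre_H2Abf and Tie2Cre libraries (edgeR adjusted p = 0.999). WT (9.85 ± 5.003 CPM), Tie2Cre_H2Abf (9.02 ± 4.37), CD8KO (6.23 ± 3.89), TCRKO (3.59 ± 2.88), CD4KO (2.29 ± 1.80) and Tie2Cre (0.941 ± 1.13) followed each other with no step larger than the larger SD. The log2 fold change was 3.125 ± 1.08 for Tie2Cre_H2Abf against Tie2Cre (edgeR adjusted p = 0.576) and 2.66 ± 1.15 without Tie2Cre_9501. It was -3.26 ± 1.09 for Tie2Cre against WT (edgeR adjusted p = 0.619) and -2.08 ± 1.01 for CD4KO against WT (edgeR adjusted p = 0.581). The low level of the Tie2Cre libraries, which held 23 counts in all, enters both comparisons with Tie2Cre. The effect of Tie2Cre_H2Abf against Tie2Cre less that of TCRKO against WT was 4.585 ± 1.46 (edgeR adjusted p = 0.529).

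**Figure D2:**
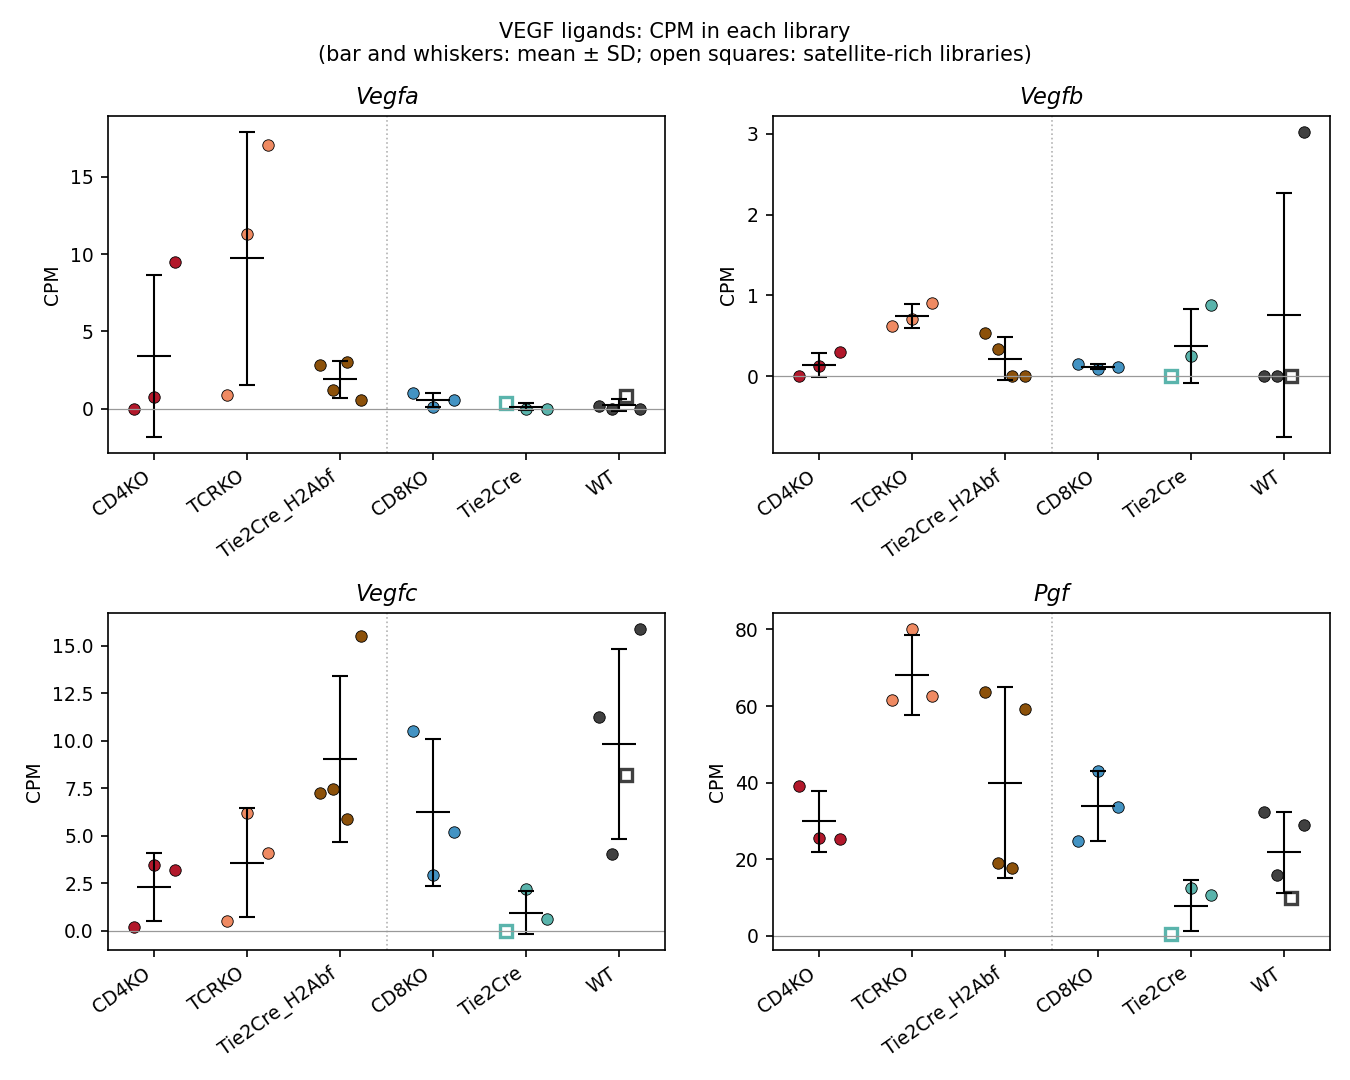
CPM of the 4 ligands in each library by background, with CD4-deficient backgrounds left of the dotted line and CD4-competent ones right of it; lines and whiskers are mean ± SD and open squares are WT_9771 and Tie2Cre_9501. Pgf is highest in TCRKO (61.5 to 80.2 CPM), Vegfa rests on 3 libraries, and Vegfc is lowest in Tie2Cre and CD4KO.

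Kdr (ENSMUSG00000062960, chr5:75932827-75978458, minus strand) encodes VEGFR2. Its CPM was 109.6, 428.1 and 383.5 in CD4KO and 261.5, 198.0 and 164.1 in TCRKO. In Tie2Cre_H2Abf it was 413.1, 316.9, 439.2 and 561.9, against 186.3, 335.9 and 300.8 in Tie2Cre. Those labelled CD8KO had 438.0, 270.7 and 313.6 CPM, and WT had 348.6, 462.8, 128.8 and 319.1 CPM. All pairs of groups compared overlapped, and the low value in WT is that of satellite-rich WT_9771.

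Group means of Kdr were highest in Tie2Cre_H2Abf (433 ± 101 CPM), then CD8KO (341 ± 86.9), WT (315 ± 139), CD4KO (307 ± 173), Tie2Cre (274 ± 78.2) and TCRKO (208 ± 49.4), and no neighbours differed by more than the larger SD. By CD4 status Kdr averaged 328 ± 143 CPM in deficient and 310.5 ± 101 CPM in competent backgrounds (n = 10 each), a log2 fold change of 0.08 ± 0.26 with an interval of -0.46 to 0.61. The log2 fold change was -0.60 ± 0.43 for TCRKO against WT and 0.66 ± 0.43 for Tie2Cre_H2Abf against Tie2Cre. The difference of these effects was 1.26 ± 0.60 (edgeR adjusted p = 0.727).

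Flt1 (ENSMUSG00000029648, chr5:147561604-147726011, minus strand) encodes VEGFR1. Its CPM was 327.1, 468.8 and 460.4 in CD4KO and 345.6, 353.9 and 218.9 in TCRKO. In Tie2Cre_H2Abf it was 555.8, 480.0, 592.8 and 785.7, against 135.7, 477.0 and 301.0 in Tie2Cre. The libraries labelled CD8KO had 530.7, 450.4 and 440.2 CPM, and WT had 616.6, 561.2, 241.3 and 388.8 CPM. The Tie2Cre_H2Abf libraries lay above the Tie2Cre libraries by a margin of 480.0 to 477.0 CPM, and the other groups compared overlapped.

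Flt1 means were in the order Tie2Cre_H2Abf (604 ± 130 CPM), CD8KO (474 ± 49.5), WT (452 ± 171), CD4KO (419 ± 79.5), TCRKO (306 ± 75.65) and Tie2Cre (305 ± 171). Only CD4KO and TCRKO differed between neighbours by more than the larger SD. By CD4 status the log2 fold change was 0.15 ± 0.24 (interval -0.35 to 0.65; edgeR adjusted p = 0.954). For Tie2Cre_H2Abf against Tie2Cre it was 0.99 ± 0.38 (0.20 to 1.78; edgeR adjusted p = 0.576). Without Tie2Cre_9501 it was 0.63 ± 0.41 (edgeR adjusted p = 0.985), a smaller value by more than 1.5 times on the log2 scale. TCRKO against WT gave -0.56 ± 0.38, and the difference of both effects was 1.55 ± 0.54 (edgeR adjusted p = 0.588). The ratio of Flt1 to Pecam1 CPM was 0.540 ± 0.0254 in Tie2Cre_H2Abf (0.522 to 0.578). In Tie2Cre it was 0.293 ± 0.0892 (0.190 to 0.3465), lowest in satellite-rich Tie2Cre_9501, with no overlap between these groups. WT had 0.483 ± 0.108 (0.322 to 0.555), which overlapped both. These ratios are descriptions with no test and no share over all genes. Pecam1 itself averaged 1112 ± 190 CPM in Tie2Cre_H2Abf and 990 ± 345 CPM in Tie2Cre.

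Nrp1 (ENSMUSG00000025810, chr8:128358604-128503363, plus strand), the co-receptor that binds Vegfa and Sema3a, had 21.8, 97.9 and 89.8 CPM in CD4KO and 57.0, 54.5 and 37.7 CPM in TCRKO. In Tie2Cre_H2Abf it had 77.55, 66.2, 87.7 and 104 CPM, against 71.8, 105 and 73.7 CPM in Tie2Cre. Libraries labelled CD8KO had 83.9, 89.95 and 54.4 CPM, and WT had 97.01, 83.9, 26.3 and 67.4 CPM. Every pair of groups compared overlapped, with CD4KO_9768 and satellite-rich WT_9771 lowest. Means were 83.9 ± 16.1 CPM in Tie2Cre_H2Abf, 83.5 ± 18.7 in Tie2Cre, 76.1 ± 19.0 in CD8KO, 69.9 ± 41.8 in CD4KO, 68.6 ± 30.7 in WT and 49.8 ± 10.5 in TCRKO. No neighbours in this order differed by more than the larger SD. By CD4 status the log2 fold change was -0.12 ± 0.265 (interval -0.66 to 0.42).

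Nrp2 (ENSMUSG00000025969, chr1:62703285-62818695, plus strand), the co-receptor known for its part with Vegfc in lymphatic vessels, had 78.2, 70.1 and 107 CPM in CD4KO and 67.4, 60.8 and 30.0 CPM in TCRKO. In Tie2Cre_H2Abf it had 67.8, 32.35, 58.0 and 76.3 CPM, against 60.5, 103 and 106 CPM in Tie2Cre. The libraries labelled CD8KO had 90.4, 51.0 and 75.2 CPM, and WT had 96.8, 67.3, 41.85 and 86.1 CPM. Every pair of groups compared overlapped. In contrast to Flt1, Nrp2 was lower in Tie2Cre_H2Abf (58.6 ± 19.0 CPM) than in Tie2Cre (90.0 ± 25.7 CPM), with a log2 fold change of -0.62 ± 0.41 that did not pass. It was -0.87 without the satellite-rich libraries (edgeR adjusted p = 0.867). By CD4 status it was -0.27 ± 0.24 (interval -0.76 to 0.23). Libraries do not mark strand, and Nrp2 overlaps the genes Gm29083 and Gm37121, which had 18 and 92 counts in all libraries, so reads shared with them cannot be told apart.

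**Figure D3:**
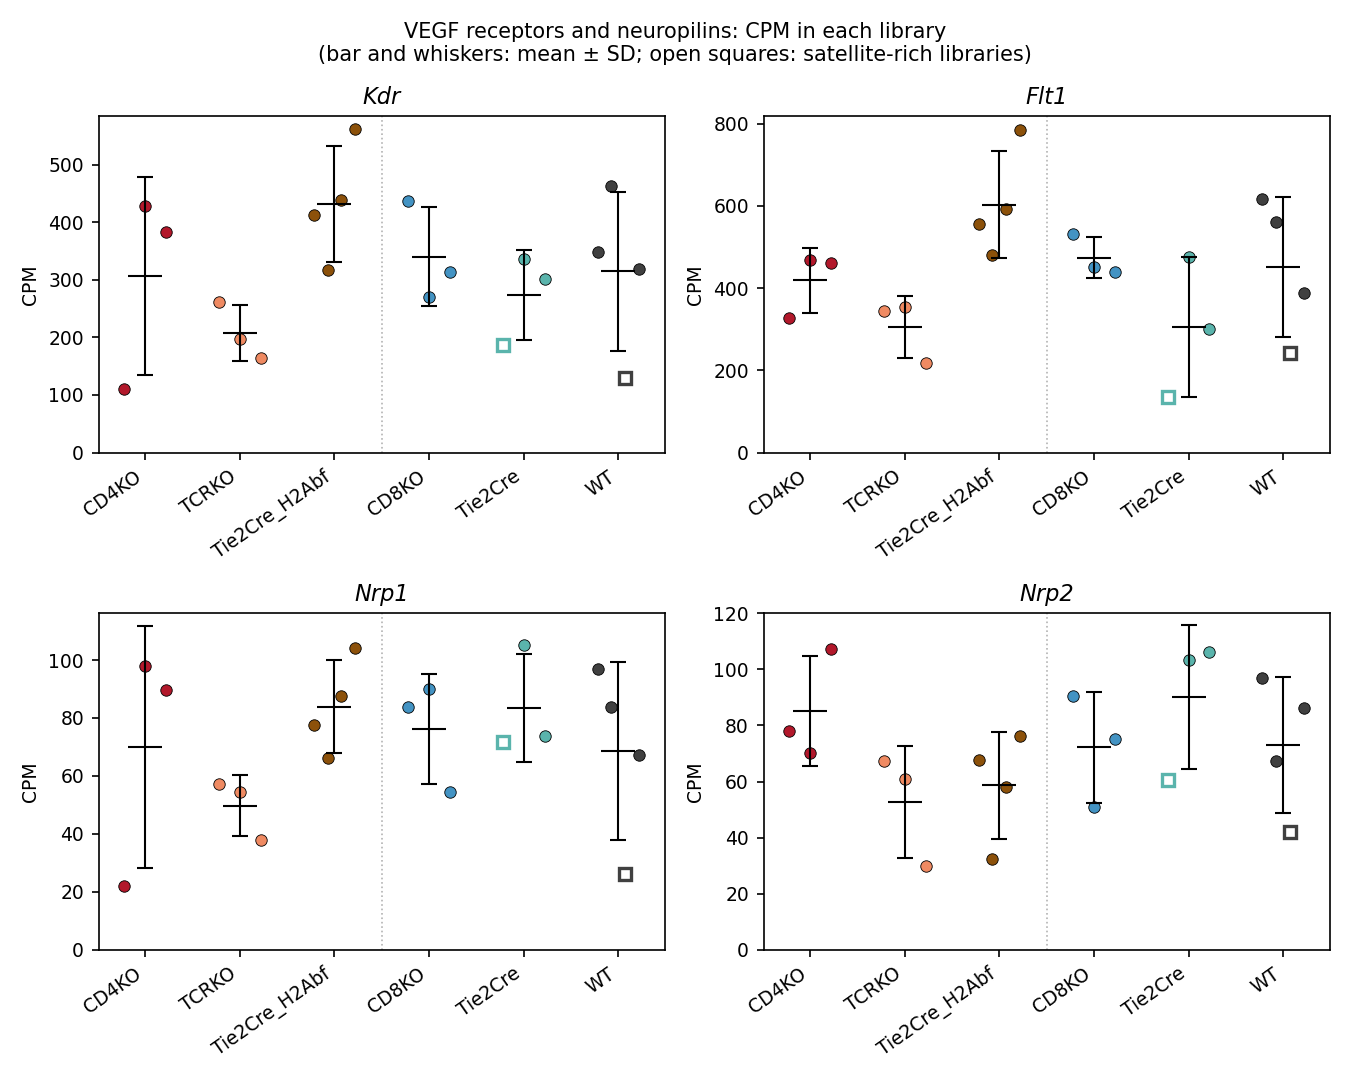
CPM of the receptors and co-receptors in each library by background, with CD4-deficient backgrounds left of the dotted line; lines and whiskers are mean ± SD and open squares are WT_9771 and Tie2Cre_9501. Kdr and Flt1 lie highest in Tie2Cre_H2Abf (means 433 and 604 CPM), while Nrp1 and Nrp2 overlap in every pair of groups compared.

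Counted over the tests, 0 of the 7 genes that passed the filter on low counts passed the adjusted threshold in any comparison (edgeR). All genes together passed in 0% of cases by CD4 status, in CD4KO, CD8KO and Tie2Cre each against WT and for the difference of effects. They passed in 0.0269% for TCRKO against WT, 0.0202% for Tie2Cre_H2Abf against Tie2Cre and 0.0605% for any difference among the 6 backgrounds. Vegfa passed the filter only through CD4-deficient libraries, since no CD4-competent library had more than 7 counts. Its direction in the counts that follow was thus set by the filter, and its presence in them is no support. By CD4 status 2 of 7, Vegfa and Pgf, were higher at an unadjusted p under 0.05, against 1.9% of all genes. In TCRKO against WT the same count was 2, again Vegfa and Pgf, against 3.99%. In Tie2Cre_H2Abf against Tie2Cre it was 4 of 7, namely Vegfa, Vegfc, Pgf and Flt1, against 2.69%. Flt1 was not among them without Tie2Cre_9501 or Tie2Cre_H2Abf_9589, which left 3. Vegfa was not among them without Tie2Cre_9502, Tie2Cre_9504, Tie2Cre_H2Abf_9576 or Tie2Cre_H2Abf_9583, which also left 3. Tie2Cre against WT had 2 lower, Vegfc and Pgf, against 2.88%. It had 1, Vegfc, without Tie2Cre_9501, WT_9748 or WT_9772, and Flt1 joined the 2 without Tie2Cre_9502 or WT_9771. CD4KO against WT had 1, Vegfa, against 8.58% in either direction. It had 0 without CD4KO_9770, and without WT_9749 it had Vegfc, lower, but not Vegfa. CD8KO against WT had 0, against 10.5%. The difference of effects had 3, namely Vegfc, Kdr and Flt1, against 6.8%. With 1 library of these groups left out, Kdr met the limit only without TCRKO_9765, Tie2Cre_9502, Tie2Cre_H2Abf_9582 or WT_9771. Otherwise 2 were left, as without Tie2Cre_9501.

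By DESeq2, Vegfa passed in TCRKO against WT (adjusted p = 0.0407), where 1.16% of all genes did. DESeq2 was run on the same filtered genes, so the limit given above for Vegfa holds there. By the same tool Flt1 passed for the difference of effects (1.501 ± 0.40, adjusted p = 0.0364), where 0.43% did, and Pgf for any difference (adjusted p = 0.0253), where 1.76% did. With no filter on low counts, edgeR passed Vegfa (adjusted p = 0.00918) and Pgf (adjusted p = 0.0217) for any difference, where 2.02% of genes passed. DESeq2 passed 0 of the 7 by CD4 status (0.0269% of all genes), in CD4KO (0.598%), CD8KO (0.551%) and Tie2Cre (0.538%) each against WT, and in Tie2Cre_H2Abf against Tie2Cre (0.356%). Libraries lay wholly higher in TCRKO than in WT for Pgf, as they did for 5.57% of all genes. In Tie2Cre_H2Abf against Tie2Cre they lay wholly higher for 3 genes, Vegfc, Pgf and Flt1, against 5.28%. Vegfa also did not overlap in either comparison, but below the floor of WT_9771 and of Tie2Cre_9501, so it is not counted. Vegfc alone lay wholly lower in CD4KO than in WT (1.19% of genes) and in Tie2Cre than in WT (1.34%).

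**Figure D4:**
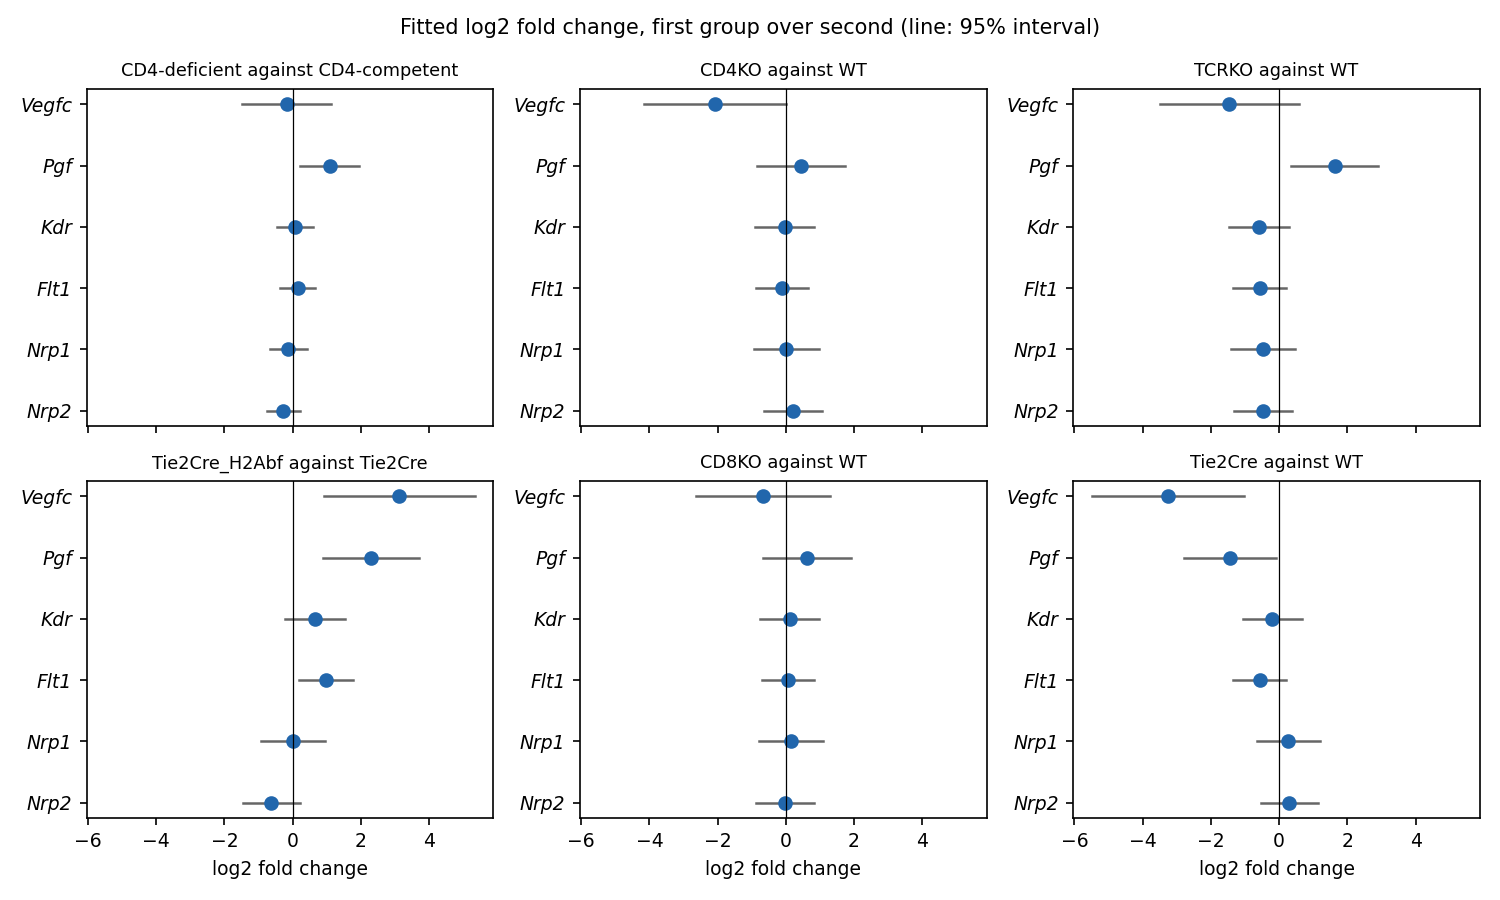
Log2 fold changes (edgeR) with 95% intervals for Vegfc, Pgf, Kdr, Flt1, Nrp1 and Nrp2 in 6 comparisons, named first group over second; Vegfa is left out because WT and Tie2Cre hold 3 counts or fewer in all, and Vegfb because it failed the filter on low counts. Pgf lies above 0 in TCRKO against WT (1.63) and Tie2Cre_H2Abf against Tie2Cre (2.30), and the intervals of Nrp1 and Nrp2 hold 0.

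Across the 20 libraries the receptors ran together. Spearman's correlation of log2 CPM was 0.886 between Kdr and Flt1 and 0.866 in the 18 libraries without WT_9771 and Tie2Cre_9501. Of 4201 genes with a mean of at least 10 CPM, Flt1 was the one most like Kdr, followed by Cdh5 (0.881), Lama4 (0.872), Flt4 (0.871) and Ep400 (0.856). For Flt1 they were Lama4 (0.946), Cdh5 (0.916), Plxna2 (0.904), Flt4 (0.895) and Kdr (0.886). Cdh5 encodes the junction protein VE-cadherin, Lama4 a chain of vascular basement membrane and Flt4 the receptor VEGFR3. Nrp1 was most like Ptprb (0.874), a phosphatase of endothelial junctions, Macf1 (0.848), Adcy4 (0.844), Vwf (0.833) and Flot2 (0.830). Its correlation was 0.747 with Kdr and 0.693 with Flt1. Nrp2 stood apart, at 0.332 with Kdr, 0.229 with Flt1 and 0.414 with Nrp1.

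Pgf did not run with its receptor Flt1 (0.077, and -0.234 in the 18 libraries). Most like Pgf were Actg1 (0.808, and 0.738 in the 18 libraries), Aprt (0.791), Csnk2b (0.773), Nes (0.767) and Map7d1 (0.738). Actg1 encodes a cytoplasmic actin and Nes the filament protein nestin. The points of these correlations are libraries that share backgrounds, depth and endothelial content, so the values are descriptions over 20 libraries.

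**Figure D5:**
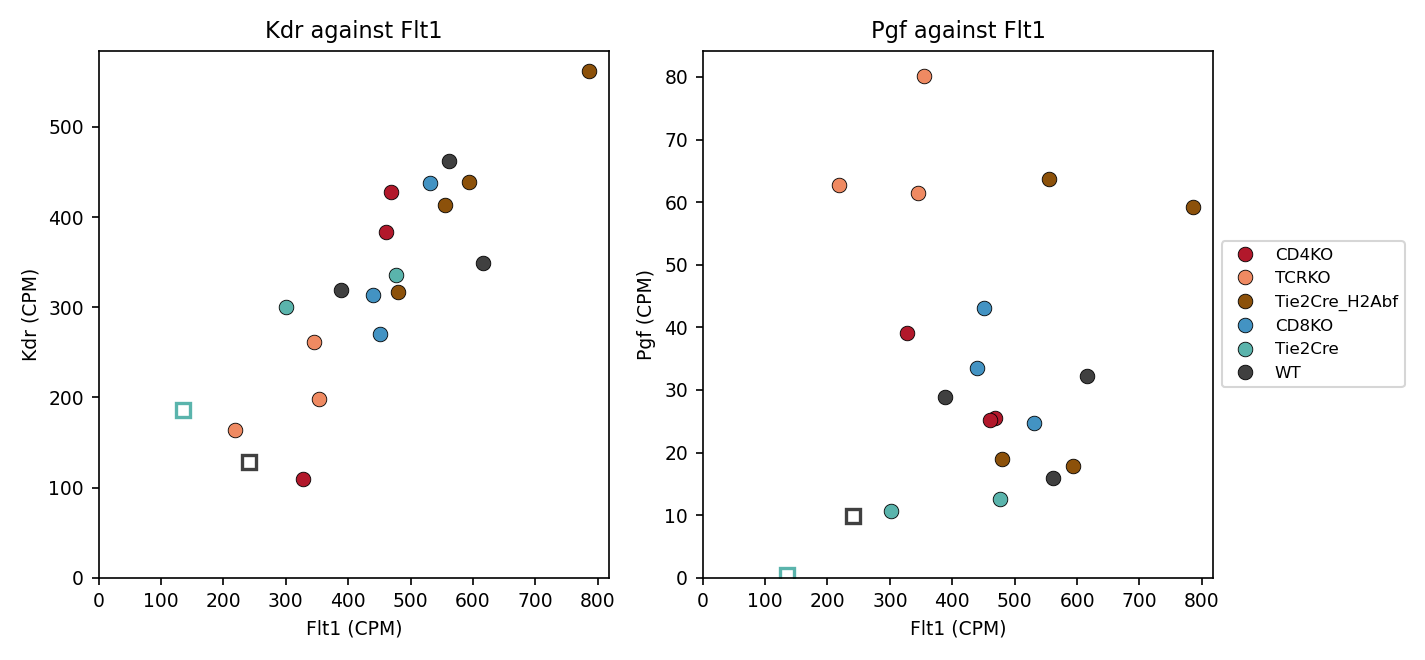
Each point is a library, coloured by background, both axes are CPM on a linear scale, and open squares are WT_9771 and Tie2Cre_9501. Kdr and Flt1 lie along a line (Spearman 0.886), while Pgf and Flt1 scatter (Spearman 0.077), with TCRKO and a pair of Tie2Cre_H2Abf libraries highest in Pgf.

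The other family members were Flt4 and Vegfd. Flt4, the receptor of Vegfc, averaged 155 ± 24.0 CPM in Tie2Cre_H2Abf (n = 4) and 61.0 ± 21.5 CPM in Tie2Cre (n = 3), a log2 fold change of 1.34 ± 0.73 that did not pass. It was 92.2 ± 67.1 CPM in WT, where satellite-rich WT_9771 had 0.821 CPM and the others had 154, 128 and 85.9 CPM. Vegfd had 0 counts in 15 libraries and at most 11, in WT_9749. The other 6 lymphatic markers summed to 12.6 to 41.7 CPM in Tie2Cre_H2Abf and 14.7 to 41.4 CPM in Tie2Cre, and their part in the levels of Vegfc and Flt4 was not tested.

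Genes known to be induced by VEGF in endothelium had a higher median in Tie2Cre_H2Abf than in Tie2Cre. This list was chosen with earlier results of these data known, so its counts are descriptions. Of the 19 tested, 10 were higher and 0 lower at an unadjusted p under 0.05 (against 2.69% of all genes higher), with a median log2 fold change of 1.05 against -0.237 over all genes, and 0 passed after adjustment. Without the satellite-rich libraries the count was 8 and the median 0.74, where 5.44% of all genes met that limit in either direction (8.54% with all libraries). Without Tie2Cre_9501 alone it was 5 and 0.78, beside 4.14%. Dll4, a Notch ligand of tip cells, averaged 248 ± 41.7 CPM in Tie2Cre_H2Abf and 83.65 ± 11.0 CPM in Tie2Cre, a log2 fold change of 1.57 ± 0.42 (edgeR adjusted p = 0.576). Cxcr4, a chemokine receptor, had 249 ± 102 CPM in Tie2Cre_H2Abf and 64.2 ± 35.1 CPM in Tie2Cre (1.95 ± 0.68). Igfbp3, a binding protein of insulin-like growth factors, had 72.9 ± 10.7 CPM in Tie2Cre_H2Abf and 21.5 ± 16.1 CPM in Tie2Cre (1.75 ± 0.55). Both had an edgeR adjusted p of 0.576. By DESeq2, Dll4 (adjusted p = 0.00603) and Apln (adjusted p = 0.0261) passed in this comparison, where 0.356% of all genes did. Tie2Cre was itself below WT for 3 of the named genes. WT averaged 166 ± 90.2 CPM for Dll4, 124 ± 89.0 for Cxcr4 and 39.0 ± 22.4 for Igfbp3, while Apln averaged lower in WT. In Tie2Cre against WT the list median was -0.417, with 1 higher and 2 lower of 19 at that limit (6.85% of all genes in either direction). By DESeq2, Rcan1 of this list passed there as higher in Tie2Cre (2.23 ± 0.575, adjusted p = 0.0223), where 0.538% of all genes did.

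Apln, which encodes the tip cell peptide apelin, had the smallest p of the list for any difference among backgrounds (edgeR adjusted p = 0.0655). It averaged 174 ± 52.3 CPM in CD4KO, 579 ± 45.8 in TCRKO, 593 ± 166 in Tie2Cre_H2Abf, 352 ± 105 in CD8KO, 170 ± 88.5 in Tie2Cre and 124 ± 109 in WT. TCRKO and Tie2Cre_H2Abf, high in Pgf, were also the highest in Apln. Its log2 fold change was 2.22 ± 0.46 in TCRKO against WT (edgeR adjusted p = 0.104). In that comparison 2 of the 19 genes were higher at an unadjusted p under 0.05 (against 3.99% of all genes), and 1 without the satellite-rich libraries, with a median of 0.25 against -0.198 over all genes. Apln passed there under 6 other settings, among them DESeq2 (adjusted p = 0.000324) and the fit without WT_9772 (edgeR adjusted p = 0.00324). By CD4 status 2 of 19 were higher, against 1.9% of all genes, with a median of 0.365 against -0.111, and 1 was higher without the satellite-rich libraries.

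The remaining lists held 0 genes past the adjusted threshold with the main settings (edgeR). In Tie2Cre_H2Abf against Tie2Cre, class 3 semaphorins and plexins, the other partners of neuropilins, had 3 of 11 higher and 2 lower at an unadjusted p under 0.05, against 2.69% higher and 5.86% lower of all genes. Of 36 genes of VEGFR2 signal transduction 0 met that limit in the same comparison, with a median of 0.19. Receptor partners and turnover had 2 of 24 higher there. Transcription factors upstream of VEGF genes had 0 of 22, with a median of 0.26. Hypoxia-induced genes had 3 of 16 higher and 1 lower, with a median of 0.24, read against the same shares. Without Tie2Cre_9501 the semaphorin list had 0 higher and 2 lower, the partners 1 higher, the signal transduction list 1 higher and the hypoxia list 1 higher and 1 lower. Pfkfb3, a regulator of glycolysis, had the smallest p of that list for any difference (edgeR adjusted p = 0.101). It averaged 115 ± 16.75 CPM in CD4KO, 35.4 ± 18.2 in TCRKO, 130 ± 68.8 in Tie2Cre_H2Abf, 27.1 ± 10.8 in CD8KO, 36.6 ± 3.71 in Tie2Cre and 63.7 ± 33.9 in WT. By DESeq2, Gpc1 and Ptprb of the partners passed in TCRKO against WT (adjusted p = 0.0392 and 0.0267), Sdc4 and Pfkfb3 for any difference (0.0163 and 0.00108) and Pfkfb3 for the difference of effects (0.0323). By edgeR for any difference, Pfkfb3 passed without WT_9771 (adjusted p = 0.0311), without both satellite-rich libraries (0.037) and with no filter on low counts (0.00353), and Gpc1, Sdc4 and Sema3e passed with no filter (0.0159, 0.027 and 0.0276).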

How the data were processed

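Bulk RNA of sorted CD31-positive cells was amplified by the MATQ method and made into Nextera XT libraries, which do not mark strand, per the labels' protocols. The submitters' processing notes name bcl2fastq 2.17, STAR, RSEM 1.2.28, DESeq2 and GRCm38, and no source used here states the annotation release. The authors deposited expected counts (RSEM's estimated counts, not normalized), TPM and effective length for 46983 gene IDs per library, per the file headers; 4.45% of the expected counts were not whole and all were rounded. The effective length deposited by the authors served in 1 alternative as another scaling. GENCODE M21 (GRCm38) gave symbols for 46488 IDs. Promoters are RefSeq's on GRCm38.p6.

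The main test was edgeR 4.0.16 (R 4.3.3) with quasi-likelihood, robust estimation, TMM and filterByExpr, which kept 14875 genes; p-values were Benjamini-Hochberg adjusted over them with a threshold of 0.05. The fit by CD4 status had 2 groups, and the other fits had 6 groups with 1 shared spread. By CD4 status, libraries of different backgrounds thus counted as independent replicates of a class. The SEs, intervals and p-values of this main fit by CD4 status do not take the background as the unit, for any gene. Standard errors come from the F statistic. CPM use TMM-scaled library sizes. Ratios of summed counts carry exact Poisson intervals (95%, scipy 1.17.1). Alternatives were DESeq2 1.42.0, limma-voom and limma 3.58.1 on log2(TPM + 1), RLE factors, 2 other filters, effective-length offsets, abundant and satellite RNA removed, fewer groups, and leaving out libraries. The 24 pairs of replicates differed by a chi-square of at least 15.9 per degree of freedom, and all were kept as separate libraries, although separate preparations of 1 sample could differ as much.

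In simulated data, 200 genes per comparison with a mean of at least 10 CPM were changed. Of 4-fold changes, 88% were recovered by CD4 status, 38% for TCRKO against WT and 26% for Tie2Cre_H2Abf against Tie2Cre. At 2-fold it was 26%, 4% and 0%, so most changes of that size were missed. At 16-fold it was 98%, 74% and 90%. Unchanged genes that passed numbered 15, 2 and 3. Vegfa, Vegfb and Vegfc averaged less than 10 CPM, so these shares do not cover them. Simulated backgrounds of the same CD4 class had equal means. The members and lists were chosen with earlier results of these data known. Genes beyond the 8 are named by rule: up to 4 per list with the smallest p for any difference, and the 5 most like Kdr, Flt1, Nrp1 and Pgf; the text gives part of them. Rcan1 is named outside this rule because it passed by DESeq2.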

Additional observations from a re-analysis of the deposited data

Results flagged for a closer look

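A library was far from the others of its group, by Dixon's 95% limit, in 4 of 32 groups of values. The limit's rate of about 1 in 20 by chance is for normal values in separate groups. It does not apply here, where groups are nested and counts are low. Vegfb stood at 3.029 CPM (16 counts) in WT_9772 while the other WT libraries were at 0, and the next of the CD4-competent libraries was at 0.882 CPM. Vegfc stood at 15.49 CPM in Tie2Cre_H2Abf_9589, against 7.45 CPM in the next library of its background and of all CD4-deficient backgrounds. Each of these 2 libraries is counted both in its background and in its CD4 class.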

How the results depend on the processing

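No paired analysis was possible because each library number is used once. Of 961 log2 fold changes of the members under alternatives, 76 had another sign, all with a main estimate within 1 SE of 0. The number of members past the adjusted threshold was 0 in every main test. It was 1 by DESeq2 for TCRKO against WT (Vegfa), 1 by DESeq2 for the difference of effects (Flt1), 1 by DESeq2 for any difference (Pgf), and 2 with no filter on low counts for any difference (Vegfa, Pgf); the cause was not tested. It was 0 whichever library was left out. RLE factors moved the median of all genes by -0.19 in Tie2Cre_H2Abf against Tie2Cre and by -0.194 in CD8KO against WT. Chosen after seeing the data, leaving out each library moved the ratios of summed counts of Vegfa both ways. By CD4 status the ratio was 17.2 without CD8KO_9752 and 34.1 without CD8KO_9751. For TCRKO against WT it was 50.6 without WT_9772, 114 without TCRKO_9765 and 136 without WT_9771. For CD4KO against WT it was 4.18 without CD4KO_9770, 30.95 without WT_9772 and 82.9 without WT_9771. For Tie2Cre_H2Abf against Tie2Cre it was 19.3 and 19.8 without Tie2Cre_9502 or Tie2Cre_9504, and 43.8 without Tie2Cre_H2Abf_9589. Without Tie2Cre_9501 no fold can be given there, since Tie2Cre is at 0. For CD8KO against WT it was 1.88 to 6.66, where WT has 1 or 2 counts. Without both satellite-rich libraries Kdr (-0.78) and Flt1 (-0.70) also had an edgeR p under 0.05 in TCRKO against WT. Counts of Vegfa and Vegfb limit what can be said of them.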
